A study of Mus musculus with 16 samples.

Results

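A list of 42 genes of the cell cycle and of DNA replication was followed through the 16 jejunal RNA libraries of the series. The members were fixed by gene symbol, and each matched 1 Ensembl gene ID among the 37620 in the files. All 42 passed the filter on low counts, which left 16558 genes for testing. The tissue was proximal jejunum of CBA/J mice, an inbred strain; the animals were males, aged 8 weeks by the design text. The 4 groups had 4 libraries each. They were mice on a methionine-supplemented diet given 8.5 Gy of gamma radiation, mice on the supplemented diet at 0 Gy, mice on a methionine-adequate diet given 8.5 Gy, and mice on the adequate diet at 0 Gy. The supplementation is stated as 300%, and a period of 6 days is stated without saying whether it counts days on the diet or days after irradiation. The labels name no genotype other than the strain, and no batch, pooling or animal identifier. Replicates are therefore separate samples of a group. P-values measure the spread between these samples, and in the main fit 1 estimate of it per gene is shared by all 4 groups.

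A dividing cell copies its DNA once in S phase and separates the copies in mitosis. Before S phase, origins are licensed by loading the MCM helicase, and cyclin E with its kinase helps to start copying. Primase then lays down primers that polymerases extend on the sliding clamp. Later, cyclin B with Cdk1 drives entry into mitosis, spindle motors and kinetochore proteins move the chromosomes, and the anaphase-promoting complex ends the phase. Many of these genes are transcribed under E2F factors and the DREAM, B-Myb and FoxM1 complexes. In the small intestine, dividing cells sit in the crypts, as crypt base stem cells and as the transit amplifying cells above them, while the villus is lined with cells that have left the cycle. High doses of radiation kill dividing crypt cells, and surviving crypts then regrow by renewed division. RNA of the whole tissue cannot tell fewer dividing cells from less RNA per dividing cell.

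Promoter sequences are shown for Prim1, the one member that passed the test of radiation in the fit described below, and for the 5 members followed through every comparison. They are the 150 bases before the annotated start of each gene, from RefSeq on build GRCm38.p6, on the strand of the gene and read 5′ to 3′. Capitals mark words for the factors of cell cycle transcription. These are the E2F words TTTCCCGC, TTTGGCGC, TTTCGCGC and TTTGCCGC, the words TTTGAA and TTCGAA of the cell cycle homology region (CHR) bound by DREAM and B-Myb, and the CCAAT box bound by NF-Y, each on either strand.
Prim1 (chr10:128015065-128015214, plus strand): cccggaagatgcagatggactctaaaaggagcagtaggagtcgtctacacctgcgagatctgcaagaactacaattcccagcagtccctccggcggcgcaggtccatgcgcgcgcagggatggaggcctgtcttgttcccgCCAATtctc
Mcm2 (chr6:88898781-88898930, minus strand): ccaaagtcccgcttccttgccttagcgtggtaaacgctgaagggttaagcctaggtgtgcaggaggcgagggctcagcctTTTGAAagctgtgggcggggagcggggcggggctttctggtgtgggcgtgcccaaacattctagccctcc
Pcna (chr2:132253181-132253330, minus strand): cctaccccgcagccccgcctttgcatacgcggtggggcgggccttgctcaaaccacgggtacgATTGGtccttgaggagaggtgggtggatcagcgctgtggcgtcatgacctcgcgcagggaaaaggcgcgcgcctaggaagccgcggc
Mki67 (chr7:135716380-135716529, minus strand): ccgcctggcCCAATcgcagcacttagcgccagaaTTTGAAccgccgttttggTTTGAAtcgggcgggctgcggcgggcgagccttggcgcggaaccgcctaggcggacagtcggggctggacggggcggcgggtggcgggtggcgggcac
Cdk1 (chr10:69352913-69353062, minus strand): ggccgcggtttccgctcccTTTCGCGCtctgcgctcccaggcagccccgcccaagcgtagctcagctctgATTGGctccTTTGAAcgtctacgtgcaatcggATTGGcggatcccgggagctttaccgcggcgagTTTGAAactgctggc
Ccnb1 (chr13:100786487-100786636, minus strand): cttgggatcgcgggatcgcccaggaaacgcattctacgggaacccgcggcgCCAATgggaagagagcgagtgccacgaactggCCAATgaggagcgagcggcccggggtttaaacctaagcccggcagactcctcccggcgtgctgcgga

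The Cdk1 promoter held all 3 kinds of word, with the E2F word TTTCGCGC beginning 131 bases before the start, a CCAAT box on the other strand (read here as ATTGG) at 80 and 48 bases, and TTTGAA at 71 and 15 bases. Mki67 carried CCAAT at 141 bases and TTTGAA at 116 and 98 bases, and Ccnb1 carried CCAAT at 99 and 67 bases. In Prim1 the only match was CCAAT at 9 bases, in Pcna ATTGG at 87 bases and in Mcm2 TTTGAA at 70 bases. Of the 42 members, 33 were in the promoter table. In the 250 bases before the start, CCAAT stood in 26 of them (78.8%), against 37.5% of all 27025 genes of the table. A CHR word stood in 13 (39.4%, against 19.6%) and an E2F word in 6 (18.2%, against 2.16%). E2F words were found in 5 of 15 members that act in replication and deoxynucleotide supply, and in 0 of 12 from the mitotic kinase, checkpoint, anaphase-promoting complex, kinetochore and spindle roles. CHR words were found in 4 of those 15 and in 5 of those 12. Cyclins, Cdk1, Mki67 and Top2a are outside both sets, and Cdk1 was the sixth member with an E2F word. These matches describe letters and not binding.

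The libraries held between 2.57 and 15.51 M counts (M for mega), and 3 were under 4 M (replicate 1 of the irradiated supplemented group, replicate 2 of the irradiated adequate group and replicate 1 of the unirradiated adequate group). A member had between 3 counts (Gins2 in replicate 2 of the irradiated adequate group) and 4233 counts (Mki67) in a library, with a median of 185. Values below are CPM, the counts per mega of library total, with totals scaled by TMM factors. The 10 genes of jejunal epithelium, among them Fabp1, Alpi and the villus structural gene Vil1, summed to between 6930 and 23900 CPM in every library. Intestinal epithelium was thus present in each, and with no other segment to compare, the label of jejunum was not tested. Red cell genes were called lower after irradiation for 5 of 5 genes on each diet, with sums of 3.59 to 28.0 CPM in irradiated and 120 to 393 CPM in unirradiated mice on the supplemented diet, and of 3.28 to 8.66 and 365 to 591 CPM on the adequate diet. Of these, Hbb-bt was at 0 in all irradiated libraries on the adequate diet. B cell genes were called lower for 2 of 5 tested on the supplemented diet (sums of 125 to 174 CPM in irradiated and 186 to 409 CPM in unirradiated mice) and for 5 of 5 on the adequate diet (73.8 to 124 and 233 to 457 CPM). Myeloid genes were called higher for 3 of 5 on each diet, with sums of 239 to 344 CPM in irradiated and 121 to 190 CPM in unirradiated mice on the supplemented diet, and of 182 to 255 and 120 to 171 CPM on the adequate diet. Of 6 T cell genes, Cd8b1 alone was called, lower on both diets. Over all tested genes 8.03% were called higher and 7.21% lower on the supplemented diet, and 7.13% and 6.58% on the adequate diet. B cells and blood precursors can divide too, and what part these cells have in the members' values was not tested.

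Per kilobase of effective length, Pcna, the sliding clamp of the polymerases, stood highest of the 42 genes in every group. It had 60.2 and 75 CPM per kilobase in irradiated and unirradiated mice on the supplemented diet, and 55.2 and 61.4 CPM per kilobase in irradiated and unirradiated mice on the adequate diet (means of 4 libraries). Next came Top2a, the topoisomerase that untangles sister chromosomes, with group means between 29.9 and 36.0 CPM per kilobase, and Ube2c, a ubiquitin-conjugating enzyme of the anaphase-promoting complex, between 27.9 and 32.5. These ranges overlapped, so Top2a and Ube2c cannot be ordered by level. Cdk1, Mki67, Mcm6, Ccnb1 and Mcm7 followed with group means between 14.9 and 23.2 CPM per kilobase. Cdc6, which loads the helicase at origins, stood lowest over the 4 groups, with 1.90 and 1.97 CPM per kilobase on the supplemented diet (irradiated, unirradiated) and 2.02 and 1.27 on the adequate diet (irradiated, unirradiated). Cyclin E genes and Gins1, a subunit that joins the helicase at the fork, were also near the low end.

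**Figure D1:**
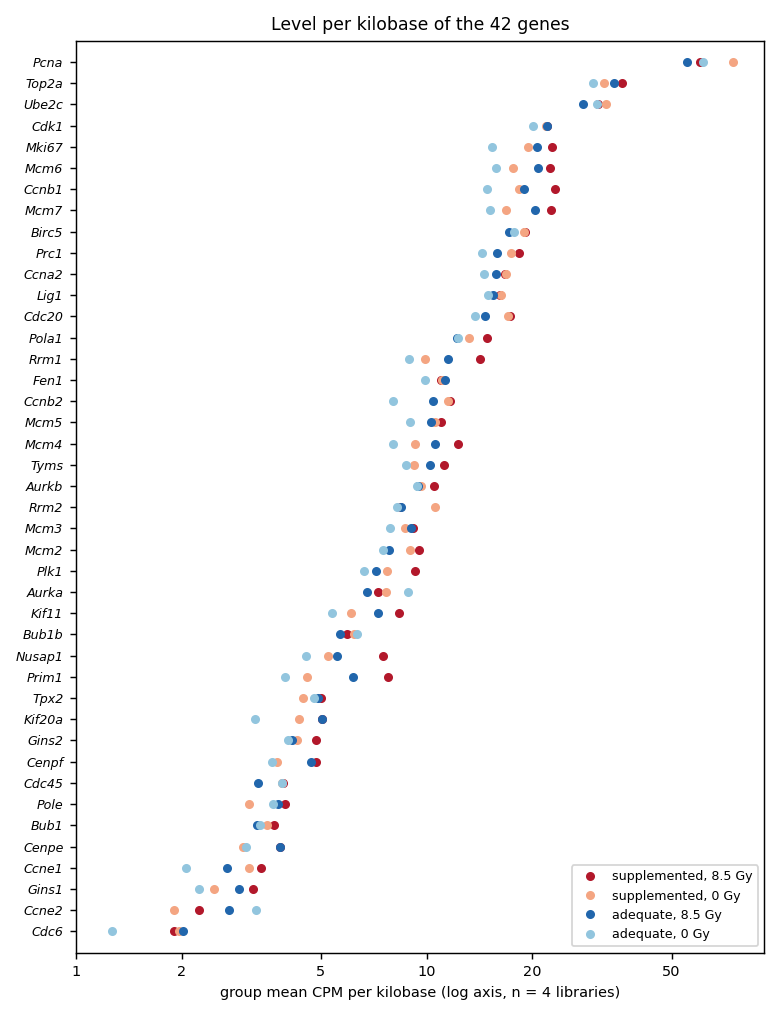
Group mean level per kilobase of effective length of the 42 genes (CPM per kilobase, log axis), a dot per group of 4 libraries, genes ordered by level. Pcna stands above all others in the 4 groups, at 55.2 to 75 CPM per kilobase, and Cdc6 stands lowest in rank.

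The members differed more between the libraries of an irradiated group than between those of an unirradiated group. The median SD of log2 CPM over the 42 genes was 0.39 in irradiated and 0.16 in unirradiated mice on the supplemented diet, and 0.49 in irradiated and 0.24 in unirradiated mice on the adequate diet (4 libraries each). For the 12812 genes in the same range of levels it was 0.25 and 0.19 on the supplemented diet, and 0.25 and 0.21 on the adequate diet, in the same order. The summed level of the 42 genes was 1650, 1420, 1390 and 933 CPM in replicates 1 to 4 of irradiated mice on the supplemented diet, against 1200, 1270, 1180 and 1120 CPM in unirradiated ones. It was 1080, 991, 920 and 1900 CPM in irradiated mice on the adequate diet, against 1020, 1200, 985 and 1000 CPM in unirradiated ones. Replicate 4 of the irradiated group stood apart on both diets, as the highest of the 8 libraries on the adequate diet and the lowest on the supplemented diet. The irradiated and unirradiated groups overlapped on each diet; on the supplemented diet the other 3 irradiated libraries lay above all unirradiated ones, and on the adequate diet they lay among or below them. In the summed level each replicate 4 was thus on the side of the other diet's irradiated libraries. Whether the labels of these 2 libraries are exchanged was not tested, and an exchange would change the values of every comparison that holds irradiated mice.

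**Figure D2:**
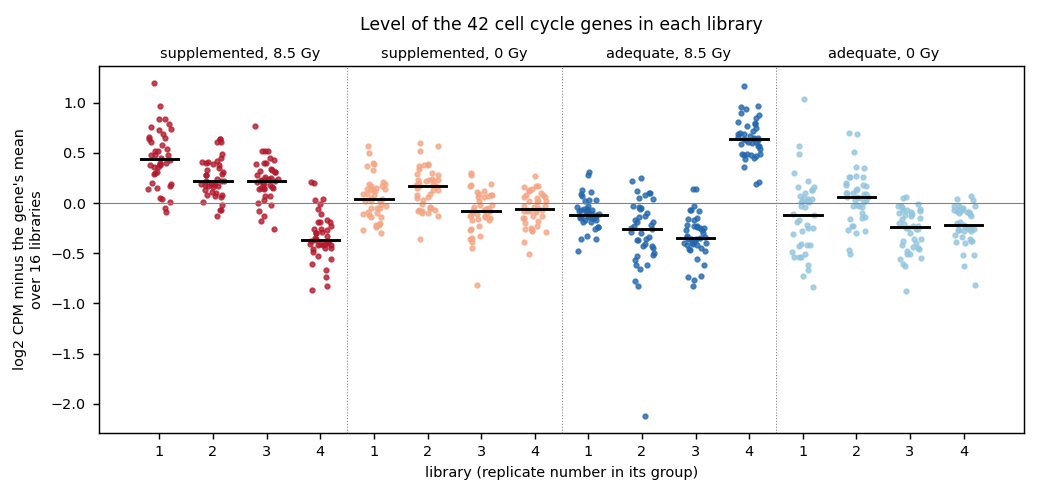
Level of each of the 42 genes in each library as log2 CPM minus the gene's mean over the 16 libraries (dots, bars at the median of the 42). The medians of irradiated supplemented libraries 1 to 4 were 0.44, 0.22, 0.23 and -0.37, and those of irradiated adequate libraries -0.11, -0.25, -0.35 and 0.64; in the unirradiated groups they lay between -0.24 and 0.17.

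The shift in these libraries ran through nearly all members and every role. Replicate 4 of the irradiated adequate group was the highest of its group for 41 of 42 members (97.6%), against 38.3% of all tested genes; the exception was Gins1. Replicate 4 of the irradiated supplemented group was the lowest of its group for 38 of 42 (90.5%), against 39.8% of all tested genes; the exceptions were Mcm2, Ccne2, Birc5 and Kif20a. Replicate 1 of the same group was the highest for 30 of 42 (71.4%, against 36.5%). Helicase and licensing genes summed to 292, 282, 288 and 184 CPM in irradiated mice on the supplemented diet, against 228, 237, 203 and 214 CPM in unirradiated ones. On the adequate diet they summed to 205, 211, 196 and 334 CPM in irradiated mice, against 209, 229, 156 and 181 CPM in unirradiated ones. Kinetochore and spindle genes showed the same libraries at the ends, with 269, 205, 210 and 147 CPM in irradiated and 162, 169, 182 and 161 CPM in unirradiated mice on the supplemented diet. With adequate methionine these genes had 167, 146, 137 and 316 CPM in irradiated and 140, 171, 163 and 143 CPM in unirradiated mice.

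Sums of crypt base markers and of jejunal epithelium genes also differed in these libraries. The 8 crypt base stem cell genes, with Lgr5, a receptor of Wnt signalling, and Olfm4 among them, summed to 1210, 1080, 1280 and 827 CPM in irradiated mice on the supplemented diet, against 428, 531, 591 and 436 CPM in unirradiated ones. With adequate methionine the sum was 846, 764, 668 and 1400 CPM in irradiated mice, against 396, 427, 419 and 421 CPM in unirradiated ones. Unlike the members' sum, the stem cell sum was higher in every irradiated than in every unirradiated library of the same diet. Of the 8 genes, 4 were called higher on each diet, namely Lgr5, Olfm4, Slc12a2 and Sox9. Smoc2, Ascl2, Axin2 and Rnf43 were called on neither diet. Of all tested genes 8.03% were called higher on the supplemented and 7.13% on the adequate diet. The sum of the 10 jejunal epithelium genes ran the other way in the libraries that stood apart. It was 6930, 10500, 11500 and 23900 CPM in irradiated mice on the supplemented diet, against 16600, 15700, 19400 and 17000 CPM in unirradiated ones. With adequate methionine it was 10800, 15400, 13400 and 9740 CPM in irradiated mice, against 15600, 14100, 16000 and 16600 CPM in unirradiated ones. The single genes did not move together, with 5 radiation estimates above 0 and 5 below on each diet. Cdx2 was called lower on the adequate diet (-0.55, adjusted p = 0.031), where 6.58% of all tested genes were called lower. No other gene of the 10 was called on either diet. Whether the share of crypt in the tissue taken, or another property of these libraries, has a part in the members' levels was not tested.

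**Figure D3:**
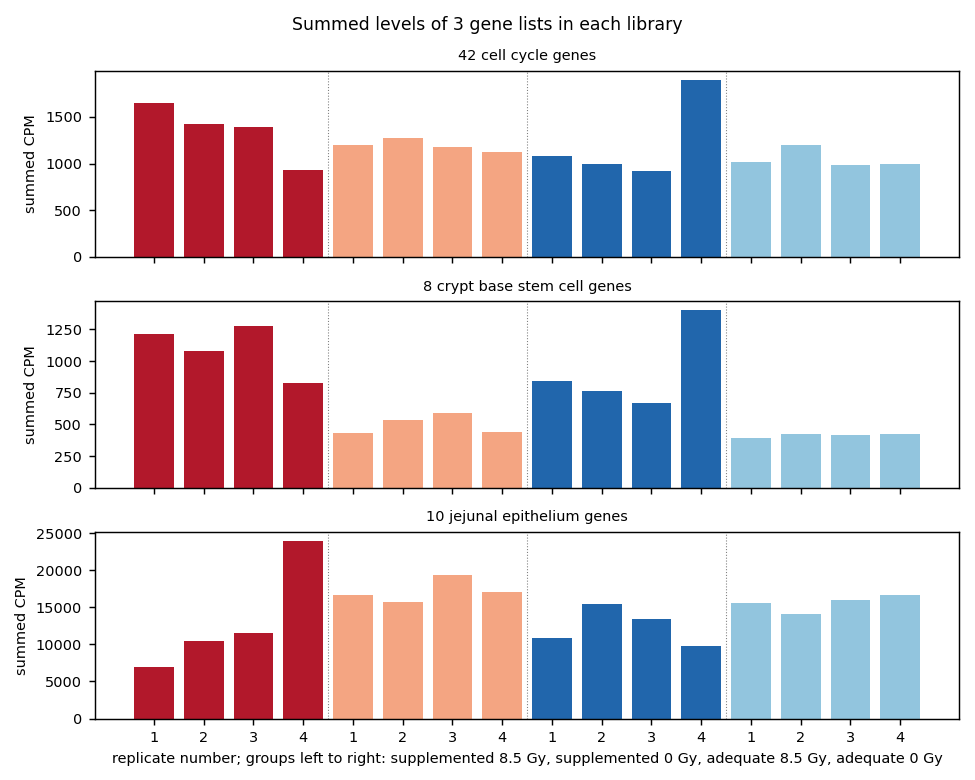
Summed CPM of the 42 cell cycle genes, 8 crypt base stem cell genes and 10 jejunal epithelium genes in each library (bars, replicates 1 to 4 of each group). Irradiated adequate replicate 4 has the highest cell cycle and stem cell sums, 1900 and 1400 CPM, and irradiated supplemented replicate 4 has the highest epithelium sum, 23900 CPM.

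Radiation on the supplemented diet was compared first, asking what 8.5 Gy changed when methionine was raised. Prim1, the catalytic subunit of primase, was the 1 member of 42 called higher at an adjusted p under 0.05 (edgeR's quasi-likelihood test, Benjamini-Hochberg over 16558 genes), and 0 were called lower. Of all tested genes 8.03% were called higher and 7.21% lower. Prim1 (ENSMUSG00000025395) had 17.6, 14.0, 12.8 and 7.76 CPM in irradiated mice, against 8.16, 8.12, 6.89 and 7.53 CPM in unirradiated ones. The first 3 irradiated libraries lay above all unirradiated ones and the fourth lay among them. Its log2 fold change was 0.74 ± 0.23 (SE, adjusted p = 0.0382, 4 libraries a group), with a 95% interval of 0.25 to 1.22. Leaving out any library of the comparison other than irradiated replicate 4 gave an adjusted p between 0.0677 and 0.108, so the call rested on each of them. Without irradiated replicate 4 it was 0.00422. DESeq2 kept the call (adjusted p = 0.020), while it was lost with limma voom (0.0526), with the 8 libraries alone (0.0508) and without the 3 libraries under 4 M counts (0.0859).

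Among the genes that prepare and carry the fork on this diet, Mcm4 and Mcm6, subunits of the MCM helicase, showed the pattern of Prim1. Mcm4 had 48.4, 43.1, 42.8 and 24.8 CPM in irradiated mice, against 30.4, 33.0, 29.7 and 26.5 CPM in unirradiated ones (log2 fold change 0.40 ± 0.18, adjusted p = 0.136). Mcm6 had 76.3, 71.8, 72.3 and 42.8 CPM, against 52.8, 51.2, 50.1 and 51.6 CPM (0.35 ± 0.18, adjusted p = 0.196). In both, 3 irradiated libraries lay above every unirradiated library and replicate 4 lay below them all. Mcm2, a subunit of the same ring, had 28.8, 31.7, 34.4 and 32.0 CPM in irradiated mice, against 30.6, 33.9, 28.2 and 26.7 CPM in unirradiated ones (0.09 ± 0.16, adjusted p = 0.744), with groups that overlapped throughout. Rrm1, the large subunit of ribonucleotide reductase, which makes deoxynucleotides, had 71.9, 59.5, 58.1 and 35.5 CPM, against 39.3, 42.2, 39.5 and 35.2 CPM (0.52 ± 0.21, adjusted p = 0.109). Rrm2, its small subunit, gave -0.35 ± 0.28, an estimate of the other sign that did not pass either.

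After Rrm2, Pcna had the lowest estimate on this diet. It had 55.8, 59.6, 62.3 and 52 CPM in irradiated mice, against 78.0, 77.5, 72.8 and 57.7 CPM in unirradiated ones. The lowest unirradiated library, replicate 4, lay among the irradiated ones, and the log2 fold change was -0.32 ± 0.14 (adjusted p = 0.134, 95% interval -0.60 to -0.03). Mitotic genes lay on either side of 0. Ccnb1 (cyclin B1) had 35.5, 24.8, 30.7 and 17.7 CPM in irradiated mice, against 19.3, 24.9, 22.7 and 18.8 CPM in unirradiated ones (0.32 ± 0.22, adjusted p = 0.350). Cdk1, its kinase, had 26.1, 28.2, 27.5 and 15.6 CPM, against 23.9, 27.3, 24.6 and 20.8 CPM (0.01 ± 0.23, adjusted p = 0.985). Mki67, a protein of the chromosome surface used to mark cycling cells, had 304, 245, 225 and 141 CPM, against 188, 201, 214 and 178 CPM (0.23 ± 0.26, adjusted p = 0.600). For all 3 the lowest of the 8 libraries was irradiated replicate 4, and the groups overlapped.

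Over all 42 members on the supplemented diet, log2 fold changes ran from -0.35 to 0.74 with a median of 0.13, beside 0.01 over all tested genes. An unadjusted p under 0.05 was reached by 4 members (9.52%), against 29.3% of all tested genes. For 39 members the unadjusted 95% interval lay within a 2-fold change either way. No member had groups that did not overlap, where 9.43% of tested genes lay above and 9.23% below without overlap. Kinetochore and spindle genes, which hold the motors Kif11 and Kif20a and the kinetochore proteins Cenpe and Cenpf, had the largest median of the roles with more than 3 genes (0.34, 7 of 7 above 0, none called). Mitotic kinase, checkpoint and anaphase-promoting complex genes had a median of 0.01. Without irradiated replicate 4, 4 members were called higher on this diet, namely Prim1, Mcm4 (0.57, adjusted p = 0.00792), Mcm6 (0.51, 0.0210) and Rrm1 (0.68, 0.0166), at a background of 10.8% higher. Both irradiated replicates 4 were also left out, a choice made after seeing the members' own levels. In that fit 12 members were called higher on this diet and 0 lower, at a background of 13% higher and 12.8% lower. They were Mcm4, Mcm6, Mcm7, Prim1, Pole, Rrm1, Ccnb1, Cenpe, Cenpf, Kif11, Nusap1 and Mki67. Their log2 fold changes ran from 0.40 for Mki67 to 0.92 for Prim1, and the median of the 42 was then 0.26. Replicate 4 was the lowest of its group for most members, so leaving it out raises most estimates by construction. The calls of that fit are a description and not a test.

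**Figure D4:**
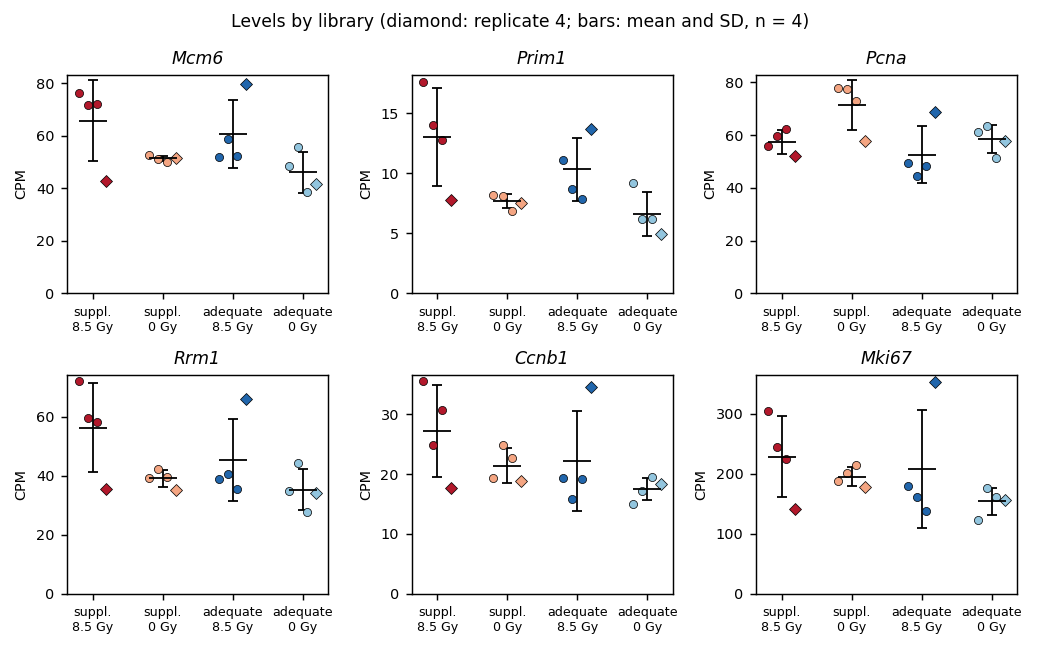
CPM of Mcm6, Prim1, Pcna, Rrm1, Ccnb1 and Mki67 in each library (points, diamonds for replicate 4; bars for the mean and SD of 4 libraries, y axis from 0). In irradiated mice replicate 4 is the lowest point on the supplemented diet and the highest on the adequate diet in all 6 genes.

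Radiation on the adequate diet, asking the same with adequate methionine, gave 0 members called higher and 0 called lower by edgeR's quasi-likelihood test. Of all tested genes 7.13% were called higher and 6.58% lower. DESeq2 and limma voom each called 1 member higher, Prim1, and none lower. Prim1 had 11.1, 8.71, 7.88 and 13.7 CPM in irradiated mice, against 9.20, 6.18, 6.19 and 4.95 CPM in unirradiated ones. Replicate 1 of the unirradiated group, a shallow library, overlapped the irradiated ones. The log2 fold change was 0.73 ± 0.24 with an adjusted p of 0.0529, just above the threshold of 0.05, and close in size to the 0.74 on the supplemented diet. It lay between 0.56 and 0.87 in fits without 1 library, and Prim1 passed without unirradiated replicate 1 (adjusted p = 0.0316) or irradiated replicate 3 (0.0374).

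Mcm4 and Kif20a, a kinesin of the late mitotic spindle, were the 2 members whose irradiated libraries all lay above the unirradiated ones on the adequate diet. Of all tested genes 9.34% lay above and 10.1% below without overlap, a larger share than 2 of 42. Mcm4 had 28.8, 32.8, 31.0 and 44.1 CPM in irradiated mice, against 27.6, 28.2, 21.5 and 26.0 CPM in unirradiated ones (log2 fold change 0.42 ± 0.18, adjusted p = 0.135). Kif20a had 13.2, 17, 12.4 and 26.4 CPM, against 8.05, 11.9, 12.2 and 12.1 CPM (0.61 ± 0.22, adjusted p = 0.0771). Cdc6 had 4.96, 4.56, 5.22 and 7.5 CPM, against 3.45, 4.77, 2.47 and 3.23 CPM (0.70 ± 0.27, adjusted p = 0.0929). In each, irradiated replicate 4 was the highest of the 8 libraries, and none passed the test. Kif20a passed without irradiated replicate 3 (0.75, adjusted p = 0.0404).

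The members followed through every comparison showed the same library on top. Mki67 had 179, 162, 138 and 353 CPM in irradiated mice, against 123, 176, 161 and 156 CPM in unirradiated ones (log2 fold change 0.43 ± 0.26, adjusted p = 0.289). Ccnb1 had 19.3, 15.8, 19.1 and 34.6 CPM, against 15.0, 17.2, 19.5 and 18.3 CPM (0.36 ± 0.23, adjusted p = 0.308). Cdk1 had 21.3, 24.5, 13.9 and 37.4 CPM, against 23.4, 23.7, 19.7 and 22.1 CPM (0.14 ± 0.24, adjusted p = 0.753). Apart from replicate 4, the irradiated libraries of these genes lay among or beside the unirradiated ones. Pcna had 49.3, 44.4, 48.1 and 68.7 CPM, against 61, 63.6, 51.4 and 57.9 CPM (-0.14 ± 0.14, adjusted p = 0.540), and Mcm2 had 24.9, 21.6, 21.7 and 35.7 CPM, against 22.2, 31.4, 20.1 and 26.3 CPM (0.06 ± 0.16, adjusted p = 0.842). For Pcna 3 irradiated libraries lay below every unirradiated one and replicate 4 lay above them all.

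Over all 42 members on the adequate diet, log2 fold changes ran from -0.36 for Aurka, a kinase of the spindle poles, to 0.73 for Prim1, with a median of 0.21 beside 0.01 over all tested genes. An unadjusted p under 0.05 was reached by 5 members (11.9%), against 29.4% of all tested genes, and the 95% interval lay within 2-fold for 36 members. The median rested on irradiated replicate 4, being -0.13 without it. Leaving out both irradiated replicates 4, a choice made from the members' own levels, lowers most estimates on this diet by construction. Aurka was then called lower (-0.68, adjusted p = 0.0372) and no member was called higher, at a background of 9.62% higher and 9.19% lower. Prim1 then had 0.56 (adjusted p = 0.0570), Mki67 0.05 (0.864) and Pcna -0.30 (0.0884).

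**Figure D5:**
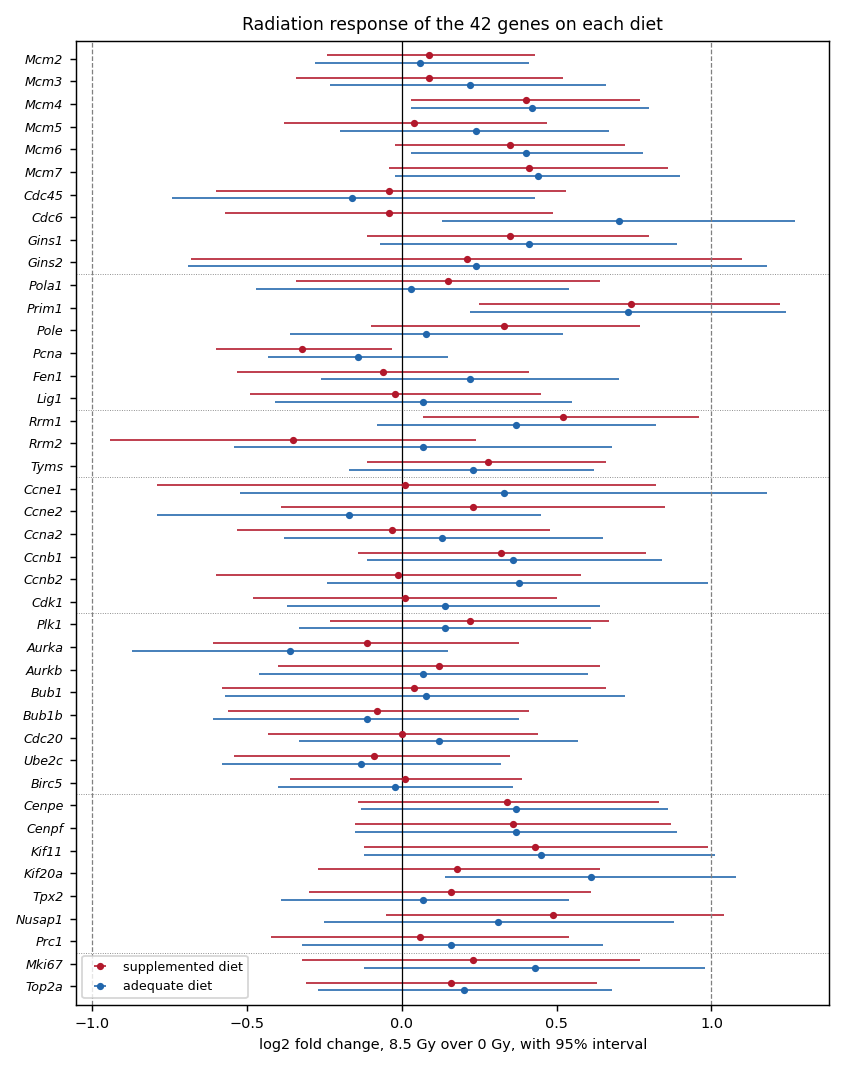
Log2 fold change of each of the 42 genes for 8.5 Gy over 0 Gy on the supplemented (red) and adequate (blue) diet, with unadjusted 95% intervals from the fit (4 libraries a group; dashed lines at a 2-fold change; dotted lines part the roles). Prim1 lies at 0.74 and 0.73, and most intervals of the other members include 0.

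Diet was compared in unirradiated mice, asking what supplementation changed without radiation. By edgeR's quasi-likelihood test 0 members were called higher and 0 lower, as were 0 by DESeq2 and limma voom. Over all tested genes edgeR called 0.169% higher and 0.0302% lower, DESeq2 0.996% and 0.368%, and limma voom 0.248% and 0.0664%. An unadjusted p under 0.05 was reached by 3 members (7.14%), Ccne2, Cdc6 and Pcna, against 11.9% of all tested genes. Ccne2 (cyclin E2) had 4.71, 3.50, 2.5 and 3.72 CPM in supplemented mice, against 9.59, 7.51, 3.30 and 4.47 CPM in adequate ones (log2 fold change -0.71 ± 0.29, adjusted p = 0.348). Cdc6 had 6.27, 6.89, 4 and 4.5 CPM, against 3.45, 4.77, 2.47 and 3.23 CPM (0.63 ± 0.26, adjusted p = 0.359). Pcna had 78.0, 77.5, 72.8 and 57.7 CPM, against 61, 63.6, 51.4 and 57.9 CPM (0.29 ± 0.14, adjusted p = 0.415). The groups overlapped in all 3.

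In Cdc20, the activator of the anaphase-promoting complex, in Kif20a and in Mki67, all supplemented libraries lay above all adequate ones without irradiation. Of all tested genes 4.71% lay above and 4.43% below without overlap, and 0 members lay below. Mki67 had 188, 201, 214 and 178 CPM in supplemented mice, against 123, 176, 161 and 156 CPM in adequate ones (0.34 ± 0.26, adjusted p = 0.656). Cdc20 had 19.3, 24.3, 20.8 and 21.1 CPM, against 13, 18.5, 18.7 and 18.0 CPM (0.30 ± 0.21, adjusted p = 0.623). Kif20a had 16.4, 14.9, 13.3 and 14.8 CPM, against 8.05, 11.9, 12.2 and 12.1 CPM (0.39 ± 0.22, adjusted p = 0.513). Mcm2, Ccnb1 and Cdk1 had log2 fold changes of 0.24 ± 0.16 (adjusted p = 0.594), 0.28 ± 0.22 (0.679) and 0.13 ± 0.24 (0.888). The 42 estimates ran from -0.71 to 0.63 with a median of 0.16, beside -0.01 over all tested genes. Of the 42, 35 were above 0, as were 8050 of all 16558 tested genes. The count of members above 0 was 31 for radiation on the supplemented diet and 35 on the adequate diet. It was 34 for diet after irradiation and 16 for the interaction. The members come from the same libraries and are not independent. The 95% interval lay within 2-fold for 37 members. The spread used in the main fit was shared with the irradiated groups, whose libraries differed more. With the 8 unirradiated libraries alone 0 members were called, where 0.702% of tested genes were called higher and 0.177% lower.

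Between the diets after irradiation, 0 members were called higher and 0 lower by any of the 3 tools, where edgeR called 0% of all tested genes in either direction. No member reached an unadjusted p under 0.05, against 5.26% of tested genes. No member's groups lay apart, where 1.44% of tested genes lay above and 1.70% below without overlap. The log2 fold changes, supplemented over adequate, ran from -0.31 to 0.36 with a median of 0.10 beside 0.00 over all tested genes, and the 95% interval lay within 2-fold for 40 members. Mki67 had 0.13 ± 0.26, Pcna 0.12 ± 0.14, Mcm2 0.27 ± 0.16, Ccnb1 0.24 ± 0.22 and Cdk1 0.00 ± 0.24, with adjusted p between 0.937 and 1. The median was near 0 or below it in fits without supplemented replicate 1 (-0.01) or adequate replicate 3 (-0.03), and was 0.54 without both replicates 4. That last fit was chosen after seeing the members' own levels, so the upward shift of its median was set by the choice. In it Mki67 had 0.69 and Ccnb1 0.70, both with an adjusted p of 0.0611, and no member passed.

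The diet by radiation interaction, the log2 response with supplementation minus the response with adequate methionine, had 0 members called in either direction by the 3 tools and 0% of all tested genes by edgeR. No member reached an unadjusted p under 0.05, against 4.46% of tested genes. The estimates ran from -0.74 for Cdc6 to 0.40 for Ccne2, with a median of -0.03 beside 0.00 over all tested genes. For Prim1 the difference was 0.00 ± 0.36 (adjusted p = 1), for Mki67 -0.20 ± 0.37, for Pcna -0.17 ± 0.19, for Mcm2 0.03 ± 0.23, for Ccnb1 -0.04 ± 0.31 and for Cdk1 -0.13 ± 0.33. The 95% interval lay within 2-fold for 35 of 42 members, and over all members the outermost interval ends were -1.52 and 1.27. The median was above 0 in fits without irradiated replicate 4 of the adequate (0.28) or the supplemented diet (0.11), and 0.01 without unirradiated adequate replicate 3 or unirradiated supplemented replicate 2.

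The other genes of the pathway were read from 5 lists of 120 genes, of which 118 were tested. On the supplemented diet 5 rose and 3 fell with radiation, smaller shares than the 8.03% higher and 7.21% lower over all tested genes. On the adequate diet 2 rose and 2 fell, again smaller shares than the background of 7.13% and 6.58%. No gene of these lists was called between the diets at either dose or in the interaction. Among the cyclins and kinases of G1, Ccnd3 (cyclin D3) fell on both diets. It had 10.9, 10.8, 11.7 and 10.9 CPM in irradiated mice on the supplemented diet, against 21.5, 22.1, 16.4 and 22.4 CPM in unirradiated ones (log2 fold change -0.89 ± 0.15, adjusted p = 0.000836). On the adequate diet it had 11.4, 9.96, 10.8 and 14.8 CPM in irradiated mice, against 22.2, 23.3, 19.7 and 16.5 CPM in unirradiated ones (-0.77 ± 0.15, adjusted p = 0.00356). The groups did not overlap on either diet, where 9.23% of tested genes lay below without overlap on the supplemented and 10.1% on the adequate diet. Cyclin D3 is also prominent in lymphocytes, and markers of B cells were lower after irradiation too; the part of these cells was not tested. On the supplemented diet Ccnd2 (cyclin D2) fell (-0.67 ± 0.19, adjusted p = 0.0275) and Cdk4, the kinase of the D cyclins, rose, with 74.5, 60.3, 65.1 and 49.2 CPM in irradiated and 41.6, 44.3, 37.5 and 36.7 CPM in unirradiated mice (0.63 ± 0.17, adjusted p = 0.0186). The call of Ccnd2 was lost without unirradiated replicate 1 or 2 or irradiated replicate 2, with an adjusted p of up to 0.0805, and that of Cdk4 without unirradiated replicate 4 or irradiated replicate 1 or 3, with up to 0.0601. On the adequate diet Cdk4 had 0.51 ± 0.17 (adjusted p = 0.0575) and Ccnd2 -0.26 ± 0.19 (0.41), of the same signs, and neither passed. Ccnd1 (cyclin D1) had 0.26 ± 0.21 on the supplemented and 0.20 ± 0.22 on the adequate diet and passed on neither (adjusted p = 0.453 and 0.588).

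In replication, Prim2, the large subunit of primase and partner of Prim1, rose on the supplemented diet (0.69 ± 0.20, adjusted p = 0.0286), with 7.04, 9.13, 6.68 and 4.85 CPM in irradiated and 4.60, 4.52, 4.20 and 3.91 CPM in unirradiated mice. This call was lost without any library other than irradiated replicate 4, with an adjusted p between 0.0501 and 0.139. On the adequate diet Prim2 had an estimate of the same sign that did not pass (0.43 ± 0.21, adjusted p = 0.175). Cks1b, a binding partner of cyclin-dependent kinases, was the 1 other mitosis gene of 50 called, on the adequate diet (0.71 ± 0.20, adjusted p = 0.0261), with 4.33, 4.15, 3.38 and 5.33 CPM in irradiated and 2.30, 2.47, 2.89 and 2.76 CPM in unirradiated mice. It was not called without irradiated replicate 1 (0.0645), irradiated replicate 4 (0.0846) or unirradiated replicate 2 (0.0753). Over all tested genes 7.13% were called higher on that diet, a larger share than 1 of 50.

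Among 19 genes that control transcription in the cycle, 2 were called higher and 1 lower on the supplemented diet and 0 on the adequate diet. With so few genes, 3 of 19 is near the share called in either direction over all tested genes on the supplemented diet. Rbl2, the pocket protein p130 of the DREAM complex, which represses cell cycle genes in resting cells, rose on the supplemented diet (0.57 ± 0.12, adjusted p = 0.00382), with 49.3, 56.2, 63.8 and 53.3 CPM in irradiated and 31.1, 35.3, 44.6 and 39.4 CPM in unirradiated mice. Tfdp2, a dimer partner of E2F factors, rose (0.47 ± 0.13, adjusted p = 0.0199), and E2f4, the E2F factor of DREAM, fell (-0.37 ± 0.10, adjusted p = 0.0227). The calls of Tfdp2 and E2f4 were each lost in fits without unirradiated replicate 1 or irradiated replicates 2 or 3, with an adjusted p of up to 0.0810, and that of E2f4 also without unirradiated replicate 2. On the adequate diet Rbl2, Tfdp2 and E2f4 had estimates of the same signs (0.18 ± 0.12, 0.16 ± 0.13 and -0.23 ± 0.10), and none was called. E2f1, Mybl2 (B-Myb) and Foxm1, activators of S phase and mitotic genes, were not called on either diet, with log2 fold changes of -0.08, -0.35 and -0.38 on the supplemented and -0.01, -0.10 and -0.31 on the adequate diet. Foxm1 had 9.50, 8.30, 7.68 and 22.2 CPM in irradiated mice on the adequate diet, against 15.3, 18.5, 13.8 and 13.5 CPM in unirradiated ones. As for the members, replicate 4 stood on top, and without it Foxm1 was called lower (-0.84, adjusted p = 0.00575).

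Of the inhibitors of cyclin-dependent kinases, 5 of 7 were tested. Of these 1 was called, lower on the adequate diet, where 6.58% of all tested genes were called lower. Cdkn2b (p15) fell on the adequate diet, with 36.3, 27.0, 34 and 29.5 CPM in irradiated and 44.5, 56.8, 49.6 and 44.9 CPM in unirradiated mice (-0.62 ± 0.18, adjusted p = 0.0348). Its groups lay apart, as 10.1% of tested genes lay below without overlap on this diet. The call was lost without any of 7 of its 8 libraries, all but unirradiated replicate 4, with an adjusted p of up to 0.105. On the supplemented diet Cdkn2b had an estimate of the same sign that did not pass (-0.46 ± 0.18, adjusted p = 0.102). Cdkn1a (p21), the inhibitor that p53 induces after DNA damage, had 46.1, 53.0, 59 and 103 CPM in irradiated mice on the supplemented diet, against 112, 57.8, 57.1 and 93.4 CPM in unirradiated ones (-0.29 ± 0.31, adjusted p = 0.573). On the adequate diet it had 85.8, 126, 131 and 54.2 CPM in irradiated mice, against 112, 91.2, 76.8 and 72.6 CPM in unirradiated ones (0.17 ± 0.31, adjusted p = 0.766). In the irradiated groups replicate 4 was the highest library for Cdkn1a on the supplemented diet and the lowest on the adequate diet, the reverse of its place in the summed level of the 42 members.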

How the data were processed

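RNA of 16 proximal jejunum samples was sequenced. Per the labels' protocols, ribosomal RNA was depleted and fragmented RNA went into small RNA type libraries. Per the submitters' processing notes, Bowtie2 2.2.9, RSEM 1.3.0 and edgeR 3.2.4 were used on build NCBIM37. The deposited values are RSEM expected counts, per the file headers, 1 file per library, with effective lengths. RSEM divides reads that match several genes, so a gene with close copies, such as Pcna, is less certain.

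Expected counts were rounded. Symbols came from a list of gene names by Ensembl ID (32897 IDs named, 4723 not). Gene types, used for the fit of protein-coding genes alone, came from GENCODE M21, a later build. Groups came from the labels; replicate numbers follow accession order and pair nothing. The smallest difference between libraries of a group was 7.21 times counting error (chi-square per degree of freedom), so none was a copy. Genes were kept with filterByExpr and scaled by TMM. The main, two-sided test was the quasi-likelihood test of edgeR 4.0.16 (R 4.3.3), with a mean per group and robust dispersions (common coefficient of variation 0.219). P-values were adjusted by Benjamini-Hochberg over all 16558 genes in each of 5 comparisons, and genes were called under 0.05. Intervals for fold changes are unadjusted. Levels plotted on the log2 scale used a prior count of 2. The code was tested on simulated data.

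Alternatives were RLE factors, no filter, at least 1 CPM in 8 libraries, DESeq2 1.42.0, limma 3.58.1 voom, 8 libraries alone, an adjusted p under 0.01, protein-coding genes alone, leaving out the 3 libraries under 4 M counts, and leaving out each library. The members and lists were chosen with earlier results of these data known. Named genes were the called members and Mki67, Pcna, Mcm2, Ccnb1 and Cdk1 throughout, the called genes of other lists with the smallest p, and Cdkn1a, E2f1, Foxm1, Mybl2 and Ccnd1. Other members named were chosen after their values were seen. One gene of the other lists, counted in their totals, is not reported here. Promoter words were searched in 250 bases before RefSeq starts on GRCm38.p6, with the start's own strand and its complement read.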

Additional observations from a re-analysis of the deposited data

Results flagged for a closer look

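Within each group of 4 libraries, a library was singled out where its gap to the nearest other divided by the group's range exceeded Dixon's 95% critical value. This met 17 of 172 groups of values, where chance alone gives about 1 in 20. Of the 17, 8 had replicate 4 of irradiated mice on the adequate diet as the highest library. They were Mcm5 (46.1 CPM), Fen1 (21.0), Plk1 (24.4), Ube2c (38.3), Cenpf (78.3), Kif11 (60.3), Tpx2 (27.7) and the sum of all members (1900 CPM). A further 4 had replicate 4 of irradiated mice on the supplemented diet as the lowest, namely Mcm6 (42.8 CPM), Cdk1 (15.6), Bub1b (10.9) and Cdc20 (13.6). The genes come from the same libraries and are not independent. The remaining flags were spread over unirradiated libraries. On the supplemented diet these were Mcm7 in replicate 3 (28.4 CPM, low) and Bub1 in replicate 2 (9.15 CPM, high). On the adequate diet they were Cdc20 (13 CPM) and Kif20a (8.05 CPM), both low in the shallow replicate 1, and the sum of all members in replicate 2 (1200 CPM, high).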

How the results depend on the processing

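No paired analysis was possible because replicate numbers follow accession order and mark no shared animal or batch. Of 42 members, the number called higher with radiation on the adequate diet was 0 in the main fit. It was 1, Prim1, with RLE factors, without the low-count filter, with DESeq2, with limma voom, with protein-coding genes alone and without the 3 libraries under 4 M counts. On the supplemented diet it was 1 in the main fit. It was 0 with limma voom, with the 8 libraries alone, at an adjusted p under 0.01, and without the 3 shallow libraries. Leaving out 1 library gave 0 to 2 on the adequate and 0 to 4 on the supplemented diet. The median log2 fold change then ranged from -0.13 to 0.33 on the adequate diet, and the interaction median from -0.17 to 0.28. Without both irradiated replicates 4, chosen after seeing the members' own levels, 12 members were called higher on the supplemented diet and 1 lower on the adequate diet. The medians were then -0.13 for radiation on the adequate diet, 0.54 for diet after irradiation and 0.40 for the interaction. The direction of the shifts without both replicates 4 was set by that choice. What made these libraries stand apart was not tested. In the diet comparisons and the interaction 0 members were called under any alternative run, leaving-out fits included. No called member reversed its sign. With 4 libraries a group and 3 to 4233 counts per member, changes under 2-fold in single low genes were often not detectable.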
